A study of Mus musculus with 2 samples.

Results

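The genes described here are 10 genes of the step between naive and primed pluripotency, with the growth and RNA-binding genes usually measured beside them: Otx2, Pou3f1, Sox3, Zic2, Zic5, Sox4, Tead2, Utf1, Lin28a and Pim2. They were taken by symbol from a table of 32285 genes, and all 10 were in it. Their RNA was measured by droplet single-cell sequencing in R1 mouse embryonic stem cells, an established line, held for 72 hours in serum-free N2B27 medium under 1 of 2 treatments, with 1 library each. LB contained the self-renewal cytokine LIF together with BMP4, on gelatin. LBPXRS contained the same LIF and BMP4 plus PD0325901 (a MEK inhibitor), Xav939 (a tankyrase inhibitor that lowers WNT signalling), SB431542 (an inhibitor of the NODAL and activin receptors) and Resorcyclic lactone, for which no target is named, on fibronectin. Added compounds and substrate therefore cannot be told apart, and neither can be told apart from differences between 2 cultures. The series asks how the FGF, TGF-beta and WNT pathways limit the response of these cells to BMP4. A further comparison, within LB, set the cells with at least 1 Fgf5 transcript against all others, Fgf5 being the classical marker of cells that have left the naive state.

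Naive embryonic stem cells resemble the inner cell mass before implantation. When FGF and ERK signalling carries them towards the epiblast after implantation, they pass through a formative state, in which the naive network is switched off and OTX2 and the POU factor OCT6, encoded by Pou3f1, are switched on. ZIC and SOX factors and the de novo DNA methyltransferases come up in the same interval, before lineage genes such as T.

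In LB 1783 cells were kept, with a median of 25418 UMIs (unique molecular identifiers, counted once per captured RNA molecule) and 45490517 in all. LBPXRS gave 2705 cells with a median of 19058 UMIs and 51832444 in all, and 8 kept barcodes occurred in both libraries. Levels are CPM, a gene's UMIs summed over cells and scaled to the same total in every set of cells, with exact 95% Poisson intervals in parentheses. All intervals cover counting error only, not the spread between cultures, and no p-value is given. Reads came from 3′ ends and the libraries differ in depth, so a level is compared here only within a gene. Fewer cells expressing a gene and less RNA per cell cannot be told apart in such sums, and shares of cells are therefore given beside them, each cell thinned to 5000 UMIs. The cells labelled embryonic stem cells were mixed in LB, where clusters resembling mesoderm (371 cells) and trophoblast (62 cells) stood beside naive-like (603) and formative-like (327) clusters. The summed level of 13 mesoderm markers was 343 CPM in LB and 6.81 CPM in LBPXRS, with all 13 lower and 1 at 0. That of 11 trophoblast markers was 566 and 119 CPM, with 6 lower and 5 higher. The summed level of 11 naive markers was 1050 CPM in LB and 1784 CPM in LBPXRS, with 10 of the 11 higher.

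The promoters of 3 members are shown because these genes gave the largest differences that met the 2-fold rule below after Pou3f1. The sequences are RefSeq windows of 300 bases on the mouse build GRCm38.p6, from 250 before to 50 after an annotated start, printed 5′ to 3′ on the gene's own strand. Capitals mark matches, on either strand, to any of the 6 letter strings searched: the octamer ATTTGCAT bound by POU factors, the TCF/LEF string CTTTGAT, the TATA string TATAAA, the CCAAT box CCAAT, the SP and KLF string GGGCGG and the ETS string CCGGAAG. None of these 6 strings is contained in another.
Pim2 is at chrX:7878056-7878355 on the plus strand, Utf1 at chr7:139943606-139943905 on the plus strand and Lin28a at chr4:134018767-134019066 on the minus strand.
Pim2: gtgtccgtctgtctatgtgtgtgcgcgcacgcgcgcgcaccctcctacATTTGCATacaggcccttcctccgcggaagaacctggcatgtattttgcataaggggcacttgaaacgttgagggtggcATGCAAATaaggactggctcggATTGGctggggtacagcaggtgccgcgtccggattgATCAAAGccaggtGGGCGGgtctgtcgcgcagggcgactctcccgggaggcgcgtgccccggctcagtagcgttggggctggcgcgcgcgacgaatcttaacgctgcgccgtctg
Utf1: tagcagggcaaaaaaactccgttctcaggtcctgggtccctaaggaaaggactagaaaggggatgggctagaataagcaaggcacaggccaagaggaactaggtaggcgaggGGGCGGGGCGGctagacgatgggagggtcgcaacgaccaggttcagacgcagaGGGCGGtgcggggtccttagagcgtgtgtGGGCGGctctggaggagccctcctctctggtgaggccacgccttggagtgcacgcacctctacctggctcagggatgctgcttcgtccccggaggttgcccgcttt
Lin28a: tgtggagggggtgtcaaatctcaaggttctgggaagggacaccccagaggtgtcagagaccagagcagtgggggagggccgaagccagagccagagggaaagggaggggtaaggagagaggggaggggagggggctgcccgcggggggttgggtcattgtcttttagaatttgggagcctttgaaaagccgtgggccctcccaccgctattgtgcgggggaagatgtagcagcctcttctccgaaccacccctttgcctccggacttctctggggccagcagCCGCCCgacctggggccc

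The Pim2 window held 2 octamers, at positions -202 and -123 from the start, in opposite orientations, and 1.74% of 32851 mouse promoter windows of this length held at least 1. It also held the TCF/LEF string once, at -65, which 3.73% of windows held, a CCAAT box (37.4% of windows) and 1 GGGCGG (35.7%). The Utf1 window held GGGCGG 4 times, all on the plus strand and 2 of them overlapping, and none of the other strings. The Lin28a window held GGGCGG once, on the minus strand at 32 bases after the start. Windows were found for 7 of the 10 members, 10 windows in all because Otx2 has 4 annotated starts. Sox4 held 4 CCAAT boxes, TATAAA (13.6% of windows) occurred in 1 Otx2 window, and the ETS string (8.86%) in none of the 10. Pou3f1, Sox3 and Zic2 were not matched. A match is a string of letters and does not show that a factor binds there.

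The members lie on 5 chromosomes of GRCm38. Otx2 (chr14:48657677-48673819), Zic5 (chr14:122456795-122465677) and Zic2 (chr14:122475435-122479852) are on chromosome 14, where Zic5 and Zic2 are transcribed away from each other with 9757 bases between them. Pim2 (chrX:7878262-7883432) and Sox3 (chrX:60891366-60893430) are X-linked, and the median log2 ratio between the libraries over 423 X-linked genes was -0.13, beside -0.14 over all 12618 genes tested. Otx2 overlaps the annotated gene Gm49154 on its own strand, so its counts are uncertain where reads could be split between them. Otx2, Pou3f1, Sox4, Tead2 and Lin28a also overlap a gene on the opposite strand, and whether counting used strand is not given in the sources used here.

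Between the libraries, 6 of the 10 members were at least 2-fold lower in LBPXRS at a level of 10 CPM or more in either library: Pou3f1, Zic5, Sox4, Utf1, Lin28a and Pim2. None was 2-fold higher. By the same rule 6.29% of the 12618 genes with a mean of at least 1 CPM were lower, 10.4% of the 7661 genes that reached 10 CPM, while 4.84% and 7.98% were higher. The 2 members outside the level rule, Sox3 and Zic2, were also lower, and only Otx2 and Tead2 lay within 2-fold. The rule and the log2 ratios use CPM + 1, whereas folds with intervals are plain ratios of CPM, so a rare gene's fold is larger than its log2 ratio. The median log2 ratio was -1.49 over the 10 members, beside -0.14 over all genes.

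Among the members that are transcription factors and reached 10 CPM, Pou3f1 differed most. It gave 26.8 CPM in LB (25.3 to 28.3; 1219 UMIs) and in LBPXRS 2.53 CPM (2.11 to 3; 131 UMIs), which is 10.6-fold lower (8.85 to 12.8). A Pou3f1 UMI was found in 8.19% of thinned LB cells and 1.37% of LBPXRS cells, and in 20.7% and 4.77% before thinning. Otx2, a homeodomain factor placed at the head of the same transition, was level: in LB 37.8 CPM (36.1 to 39.7), in LBPXRS 38.3 CPM (36.6 to 40.0), a log2 ratio of 0.02. The share of thinned cells with an Otx2 UMI was 14.9% (13.2 to 16.7) in LB and 16.2% (14.8 to 17.6) in LBPXRS, and these intervals overlap. Against naive-like LB cells, however, Otx2 was 1.36-fold lower in LBPXRS (1.26 to 1.47). It was 1.37-fold lower (1.23 to 1.51) against the formative-like and 1.66-fold lower (1.44 to 1.91) against the Fgf5-positive cells. Only 3 of the 7 LB clusters lay above LBPXRS in Otx2, 2 of them without overlap of intervals. The other LB clusters gave 6.17 to 30.9 CPM, below LBPXRS.

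The zinc-finger factors Zic5 and Zic2, neighbours on chromosome 14, were lower to a like degree. In LB Zic5 gave 12.8 CPM (11.8 to 13.9), in LBPXRS 5.32 CPM (4.72 to 5.99), 2.41-fold lower (2.08 to 2.79). Zic2 gave 5.19 CPM (4.55 to 5.89) and 1.76 CPM (1.41 to 2.16), 2.95-fold lower (2.31 to 3.81), both under the level rule. The intervals of these 2 ratios overlap. Scaling by TMM or by median of ratios, which put the median of all genes at 0.00 and 0.02, moved Zic5 to -0.99 and -0.97, just short of the 2-fold rule, and kept the direction of all 10 members.

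Sox3 and Sox4 are SOX factors of neural and mesenchymal progenitors, among other cells. Sox3 was rare in both libraries, in LB at 2.57 CPM (2.13 to 3.08; 117 UMIs), in LBPXRS at 0.0965 CPM (0.0313 to 0.225; 5 UMIs), a 26.7-fold difference with a wide interval (11.1 to 83.6). Sox4 gave 36.4 CPM (34.7 to 38.2) and 14.5 CPM (13.5 to 15.6) in the same order, 2.51-fold lower (2.30 to 2.74). Tead2, a DNA-binding partner of the YAP coactivator in the Hippo pathway, gave 141 CPM (138 to 145) and 114 CPM (111 to 117), 1.24-fold lower. That difference was larger than the counting error but did not reach 2-fold. The log2 ratio of Tead2 was -0.30, beside a median of -0.14 over all genes. It ran from -0.32 to -0.12 under the settings, given below, that kept every kind of LB cell.

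Utf1, a chromatin protein of undifferentiated stem cells, gave 332 CPM in LB (327 to 337; 15097 UMIs), and LBPXRS had 74.3 CPM (72.0 to 76.7; 3852 UMIs). This is 4.47-fold lower (4.31 to 4.63), and the share of thinned cells with a Utf1 UMI was 55.9% in LB and 28.3% in LBPXRS, 71.3% and 60.4% before thinning. The mesoderm-like LB cells had the lowest Utf1 level of the LB clusters, 11.2 CPM. They showed it in 3.13% of thinned cells, and in 12.9% before thinning at a median depth of 23221 UMIs. The LBPXRS shares lay above these shares, which come from the other library, where the level of Utf1 was higher. Whether the Utf1 RNA in mesoderm-like cells was their own was not tested. Lin28a, an RNA-binding protein that blocks the maturation of let-7 microRNAs, gave 85.7 CPM (83.0 to 88.4) and 19.7 CPM (18.5 to 21.0), 4.34-fold lower (4.05 to 4.66), with shares of thinned cells of 31.9% and 9.12%. Pim2, a serine/threonine kinase that promotes growth and survival, gave 75.7 CPM (73.2 to 78.2) and 16.3 CPM (15.2 to 17.4), 4.65-fold lower (4.31 to 5.02), with shares of 17.5% and 8.09%. Although their ratios between libraries were alike, these 3 genes differed in which LB cells held their RNA.

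**Figure D1:**
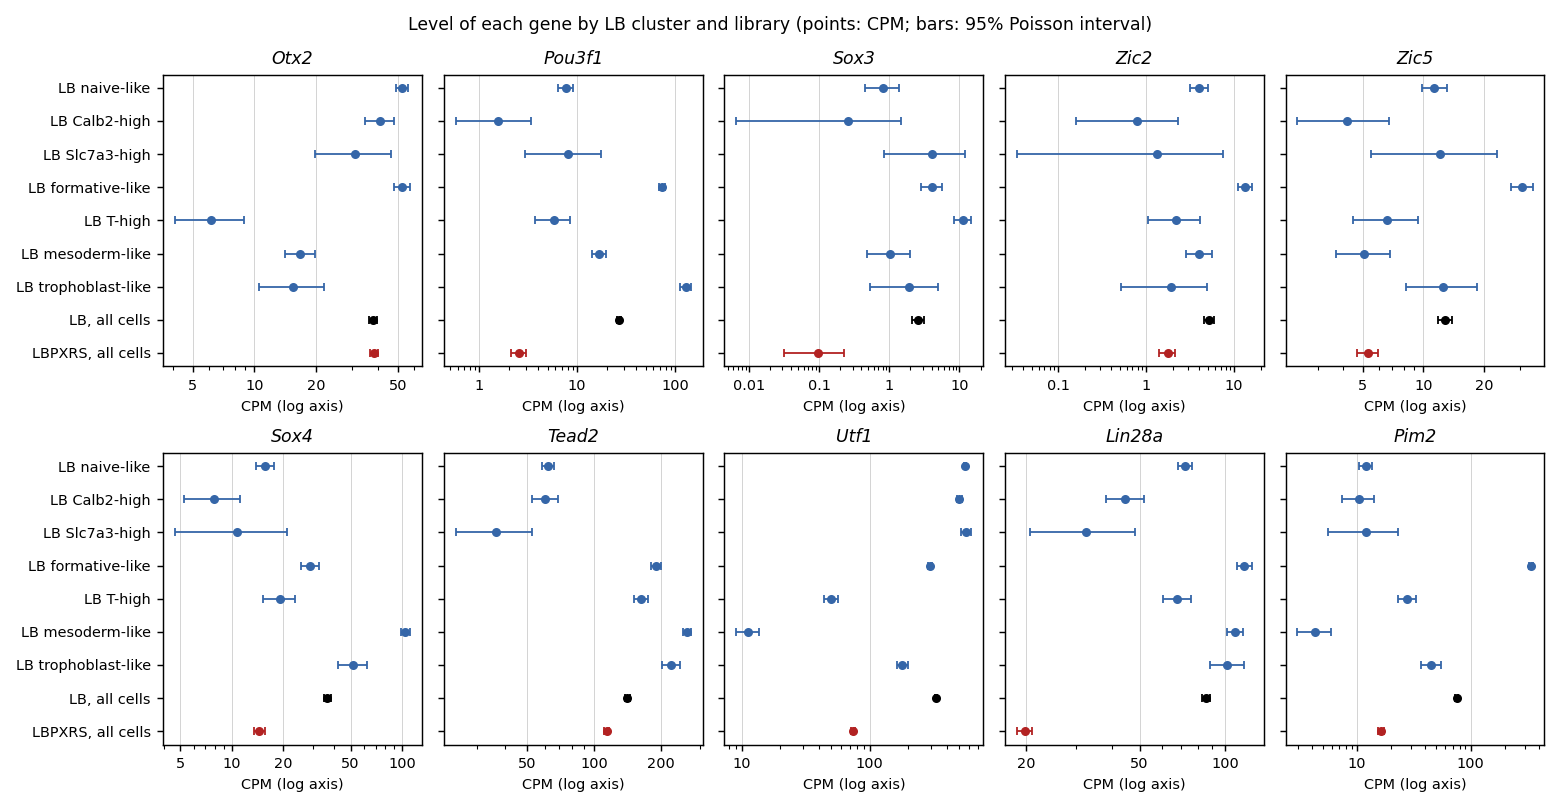
Each panel plots 1 gene: the x axis is its level in CPM on a log axis with its own range, and rows are the 7 LB clusters (blue), all LB cells (black) and all LBPXRS cells (red), with points for CPM and bars for the 95% Poisson interval. Lin28a and Sox3 in LBPXRS lie below every LB cluster, with intervals that overlap 1 of the 7, Otx2 in LBPXRS lies at the LB level, and Pim2 stands out in the formative-like cluster at 339 CPM.

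Within LB the members followed different cells. The clusters were made without the 10 genes, and cells of 1 library are not replicates, so these levels are descriptions. Pim2 was concentrated in 1 cluster: 339 CPM in the formative-like cluster (327 to 352), 45.2 CPM in the trophoblast-like cluster, 27.6 CPM in a cluster led by Sprr2a3 and T, 10.4 to 12.1 CPM in the naive-like cluster and the clusters led by S100a13 and Calb2 or by Slc7a3 and Pmel, and 4.26 CPM in the mesoderm-like cluster. The formative-like cluster held 19.0% of LB UMIs and 85.3% of the Pim2 UMIs. In thinned cells Pim2 was found in 70.0% of formative-like, 6.51% of naive-like and 3.13% of mesoderm-like cells.

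Pou3f1, Zic2 and Zic5 were high in the same cluster, but less narrowly. Pou3f1 gave 73.8 CPM in formative-like cells (68.2 to 79.8) and 7.61 CPM in naive-like cells (6.35 to 9.04), yet its highest level, 128 CPM (113 to 145), was in the 62 trophoblast-like cells. Zic5 gave 30.7 CPM in formative-like cells (27.1 to 34.7) and 4.17 to 12.5 CPM elsewhere. Zic2 gave 13.3 CPM (11.0 to 15.9) and 0.782 to 4.03 CPM elsewhere. Formative-like cells supplied 52.4% of the Pou3f1, 48.7% of the Zic2 and 45.6% of the Zic5 UMIs of LB.

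Otx2 did not separate naive-like from formative-like cells: its levels were 52.2 CPM (48.8 to 55.7) and 52.3 CPM (47.6 to 57.4), with overlapping intervals. It was lowest in the cluster led by Sprr2a3 and T (6.17 CPM), followed by the trophoblast-like (15.4) and mesoderm-like (16.7) clusters, whose intervals overlap. Sox3 had its highest level in that Sprr2a3 and T cluster, 11.2 CPM (8.37 to 14.8), which supplied 43.6% of its UMIs from 9.97% of all LB UMIs.

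Sox4 and Tead2 were highest outside the pluripotent-like cells. Sox4 gave 105 CPM in mesoderm-like cells (98.1 to 112), 51.4 CPM in trophoblast-like cells and 28.9 CPM in formative-like cells, and the mesoderm-like cells supplied 54.9% of its UMIs from 19.1% of all. Tead2 gave 261 CPM in mesoderm-like cells (250 to 272), 222 CPM in trophoblast-like, 190 CPM in formative-like and 62.2 CPM in naive-like cells, and of its neighbours in this order only the naive-like cluster and the cluster led by S100a13 and Calb2 overlapped. When LBPXRS was set against single LB clusters, as given below, the log2 ratio of Sox4 was -0.10 (naive-like) and -0.94 (formative-like). That of Tead2 was 0.87 and -0.73. The part of the mesoderm-like cells in the differences between the libraries was not tested.

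Utf1 was highest in the 3 clusters where Sox4 and Tead2 were lowest. It gave 559 CPM in naive-like cells (548 to 570), 503 CPM in the cluster led by S100a13 and Calb2, 569 CPM in a shallow cluster led by Slc7a3 and Pmel (516 to 626; median depth 10944 UMIs), 297 CPM in formative-like cells and 11.2 CPM in mesoderm-like cells. Naive-like cells supplied 62.7% of Utf1 UMIs from 37.3% of all, and 87.8% of them showed Utf1 after thinning. Lin28a was the flattest of the members in LB, from 32.3 CPM in the Slc7a3 and Pmel cluster to 117 CPM in formative-like cells, a 3.62-fold range, with 72.5 CPM in naive-like and 109 CPM in mesoderm-like cells.

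**Figure D2:**
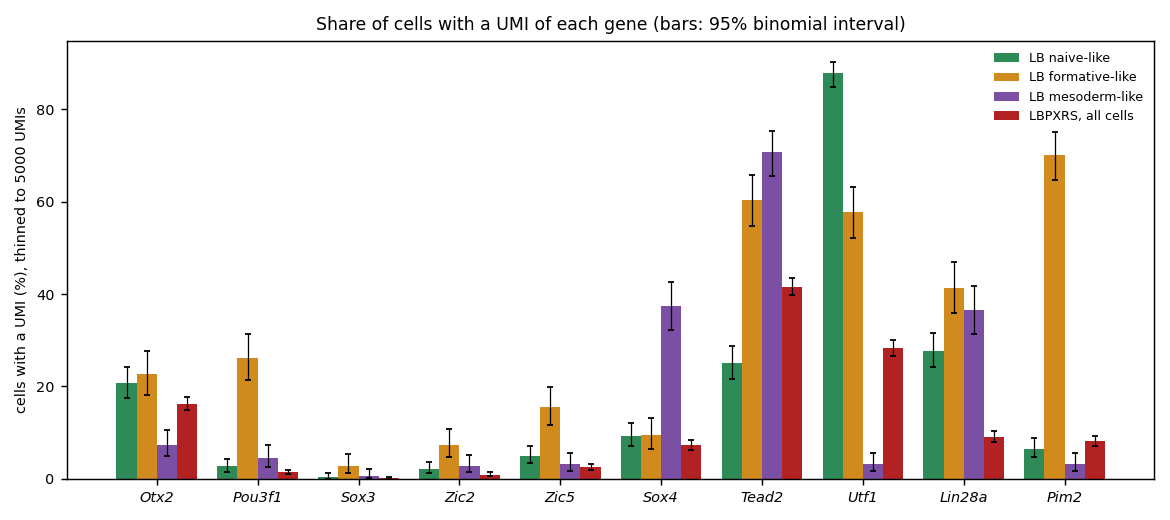
Bars give the percent of cells with at least 1 UMI of each gene (y axis) after thinning every cell to 5000 UMIs, for naive-like, formative-like and mesoderm-like LB cells and for all LBPXRS cells, with 95% binomial intervals. Utf1 reaches 87.8% in naive-like cells and Pim2 70.0% in formative-like cells, while LBPXRS lies at 28.3% and 8.09%.

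The comparison of LBPXRS with the naive-like LB cells alone, which removes the mesoderm-like and trophoblast-like cells from the LB side, left Utf1 and Lin28a as the only members at least 2-fold lower by the rule on CPM + 1 at 10 CPM, 2 of 10, beside 3.96% of 12200 genes tested and 6.64% of the 7278 reaching 10 CPM. None was 2-fold higher, beside 5.48% and 9.18% of genes. Utf1 was then 7.52-fold lower (7.24 to 7.81) and Lin28a 3.68-fold lower (3.38 to 4). Pim2 turned over and was 1.36-fold higher in LBPXRS (1.17 to 1.60), and Tead2 turned from a log2 ratio of -0.30 to 0.87. Otx2 gave -0.44, Zic2 -0.86, Sox4 -0.10 and Zic5 -0.96, just short of the rule although its plain ratio was 2.13-fold lower (1.76 to 2.57). Pou3f1 gave -1.29 at levels under 10 CPM on both sides, and Sox3 was too rare to be tested. With naive-like cells from a finer clustering (233 cells) Pou3f1 and Sox4 turned as well, to 0.08 and 0.41, while the count of 2 stayed.

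Against the formative-like LB cells, 6 members were at least 2-fold lower at 10 CPM or more, beside 9.39% of 12656 genes tested and 15.1% of those reaching 10 CPM, and none was higher, beside 6.46% and 10.4%. These were Pou3f1 (29.2-fold), Pim2 (20.8-fold), Zic2, Zic5, Utf1 and Lin28a, the last 4 at log2 ratios from -2.51 to -1.99. Sox3, under that level, was 41.9-fold lower (16.4 to 137). Otx2 again gave -0.44. Against the Fgf5-positive LB cells described below, 7 members met the same rule, these 6 and Sox4 (Sox3, under the level, was 57.5-fold lower, 20.8 to 197), beside 9.86% and 15.8% of genes, and none was higher, beside 6.58% and 10.6%. Across the 7 LB clusters taken singly, LBPXRS was below all 7 for Lin28a and Sox3, below 6 for Pou3f1, below 5 for Utf1, Zic2, Zic5 and Sox4, below 4 for Tead2 and below 3 for Otx2 and Pim2. Counting only clusters whose interval lay wholly above that of LBPXRS, these became 6 for Lin28a and Sox3, 5 for Pou3f1 and Utf1, 4 for Tead2, 3 for Zic2, Zic5, Sox4 and Pim2 and 2 for Otx2.

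**Figure D3:**
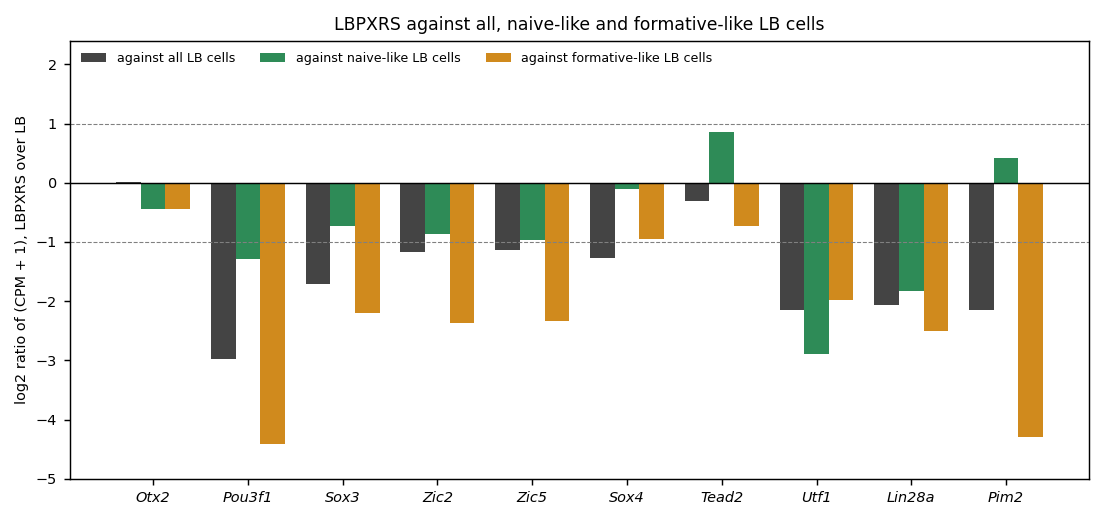
Bars give the log2 ratio of (CPM + 1), LBPXRS over LB, for each gene, with all, naive-like or formative-like LB cells on the LB side; dashed lines mark 2-fold. Pou3f1, Utf1 and Lin28a lie past the lower line in all 3 comparisons (Pou3f1 under 10 CPM on both sides against naive-like cells), whereas Pim2 goes from -4.30 against formative-like to 0.42 against naive-like cells.

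Within LBPXRS the 7 clusters are called by their leading genes. That led by Id3 and Krt8 (677 cells) had 4 of 7 detected trophoblast markers raised (Gata3, Krt8, Krt18 and Krt19) and met the naming rule used for LB, and the others did not meet it. The cluster led by Gata2 and Dusp4 (481 cells) had the lowest Otx2, 13.4 CPM (11.1 to 15.9), against 40.2 to 49.7 CPM in the other 6. The same cluster had the lowest Utf1, 37.9 CPM (34.1 to 42.0), and a Lin28a level of 9.42 CPM (7.58 to 11.6). Utf1 was 122 CPM (113 to 132) in the cluster led by Hspa5 and Pdia6, and Lin28a was 30.03 CPM (26.9 to 33.4) in that led by Id3 and Krt8. Leaving out a shallow cluster of 80 cells, Tead2 stayed between 97.0 and 123 CPM and Pim2 between 14.4 and 18.7 CPM. Every neighbouring pair in the order of either gene overlapped. The highest and lowest of these clusters did not overlap for Tead2 (117 to 131 against 88.8 to 106). For Pim2 they did (16.1 to 21.6 against 12.2 to 16.9).

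Fgf5 was detected in 123 of 1783 LB cells, 6.90% (5.77 to 8.18; exact binomial interval), of which 70 had 1 UMI and 53 had more. In LBPXRS 1 cell had 1 UMI. Of the 123 cells, 98 lay in the formative-like cluster and 13 in the naive-like cluster. They were deeper than the other 1660 cells, with a median of 28347 against 25294.5 UMIs. Their summed naive markers were at 346 against 1107 CPM, their mesoderm markers at 241 against 352 CPM and their trophoblast markers at 138 against 601 CPM, with 3 of these 11 at 0. The part of these differences in the values that follow was not tested, except by comparing cells of the same clusters and cells with no UMI of T, Mesp1, Hand1 or Foxf1.

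In the Fgf5-positive cells 5 of the 10 members were at least 1.5-fold higher at 10 CPM or more (Otx2, Pou3f1, Zic2, Zic5 and Pim2) and none was lower. By that rule 3.6% of 12459 genes were higher, 5.99% of the 7473 that reached 10 CPM, while 3.23% and 5.38% were lower. Pim2 gave 371 CPM in Fgf5-positive cells (351 to 392) and 51.6 CPM in the others (49.4 to 53.8), a 7.20-fold difference (6.71 to 7.72), and it was seen in 69.7% and 13.6% of thinned cells. Pou3f1 gave 78.3 and 22.6 CPM, 3.46-fold higher (3.01 to 3.97). Zic2 gave 15.2 and 4.37 CPM (3.47-fold, 2.50 to 4.75). Zic5 gave 34.2 and 11.1 CPM (3.08-fold, 2.50 to 3.78), an interval that overlaps those of Zic2 and Pou3f1. Otx2 gave 63.7 and 35.7 CPM (1.78-fold, 1.54 to 2.06).

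The other 5 members were not counted. Lin28a was 1.39-fold higher (1.25 to 1.54) and Tead2 1.44-fold higher (1.33 to 1.56), both short of the rule. Sox3 was at 5.55 and 2.33 CPM, under the level rule, with a ratio of 2.38 (1.38 to 3.92). Sox4 was at 38.3 and 36.3 CPM, with an interval of the ratio that includes 1 (0.875 to 1.26). Its log2 ratio of 0.07 became 0.77 in cells with no UMI of T, Mesp1, Hand1 or Foxf1, and -0.44 where positive cells needed 2 Fgf5 UMIs. Utf1 alone pointed downward, at 286 CPM in Fgf5-positive and 336 CPM in other cells, a ratio of 0.853 (0.799 to 0.910). The median log2 ratio over the 10 members was 0.90, beside 0.08 over all genes.

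Within the formative-like cluster the ratios of the 5 higher members were smaller. There, with 98 Fgf5-positive and 229 other cells, Pim2 was the only member past 1.5-fold at 10 CPM or more (Sox3, under that level, had a ratio of 1.85, 0.888 to 3.79), beside 1.3% of 12263 genes and 2.17% of those reaching 10 CPM: 455 CPM (430 to 481) against 286 CPM (273 to 300), a ratio of 1.59 (1.48 to 1.71). Zic5 was higher by 1.45 (1.13 to 1.87) and Utf1 lower, at a ratio of 0.773 (0.707 to 0.845). The ratios of Pou3f1 (1.16, 0.980 to 1.37), Otx2 (1.02) and Lin28a (1.04) lay near 1. Among the 25 Fgf5-positive cells outside that cluster, Pim2 was at 53.3 CPM (37.7 to 73.2), Utf1 at 433 CPM (387 to 485) and Otx2 at 104 CPM (81.5 to 130).

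**Figure D4:**
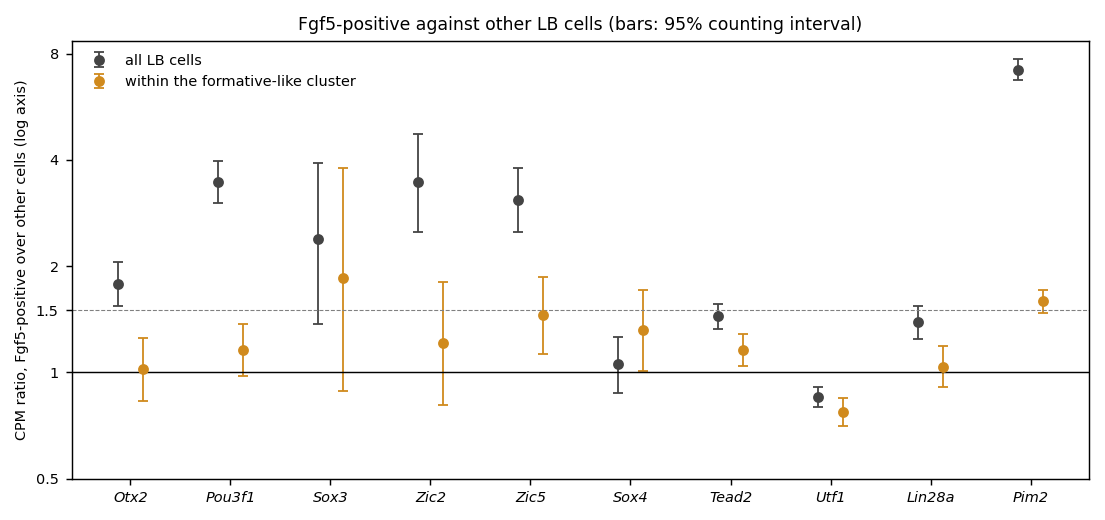
Points give the ratio of CPM in Fgf5-positive over other LB cells (y axis, log scale) for each gene, in all LB cells (grey) and within the formative-like cluster (orange), with 95% counting intervals; the dashed line marks 1.5-fold. Pim2 falls from 7.20 to 1.59 and Pou3f1 from 3.46 to 1.16, and Utf1 lies below 1 in both.

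A list of 20 other genes of the formative programme was read by the same rules. Of these, 9 were at least 2-fold lower in LBPXRS and none higher, beside 6.29% and 4.84% of all genes tested, with a median log2 ratio of -1.88. Dnmt3b, a de novo DNA methyltransferase, was at 116 CPM in LB and 5.48 CPM in LBPXRS, Lef1, a WNT effector, at 18.3 and 0.405 CPM, Myc at 13.2 and 0.154 CPM and the cadherin gene Cdh2 at 11.1 and 0.695 CPM. Against naive-like LB cells alone, 9 of the 18 tested were again at least 2-fold lower at 10 CPM or more, beside 3.96% of all genes, and the median was -1.23. Etv5, Tcf15, Grhl2 and Zscan10 were then counted, and Lef1 and Myc were not, being under 10 CPM on both sides. Sox11 and Cdh2, also under 10 CPM, gave log2 ratios of -0.65 and -0.51, short of 2-fold on CPM + 1. As plain ratios, Myc was 48.2-fold lower (23.7 to 114), Lef1 21.7-fold lower (13.7 to 36.1) and Cdh2 2.04-fold lower (1.16 to 3.51). In Fgf5-positive cells 9 of the 19 tested were at least 1.5-fold higher, beside 3.6% of all genes, Dnmt3b at 403 against 92.4 CPM and Dnmt3a at 52.0 against 24.6 CPM among them, and Dnmt3l was lower, with a median of 0.59.

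Of 18 paralogues of the members, 10 were expressed enough to test. In LBPXRS 3 of these were at least 2-fold lower and 1 higher, beside 6.29% and 4.84% of all genes. Sox11, which also stands in the formative list (40.0 CPM in LB, 4.94 CPM in LBPXRS), and Lin28b (14.5 and 1.79 CPM) were among those lower in LBPXRS, and Pim1, a kinase of the same family as Pim2 and a known target of LIF and STAT3 signalling, was higher, at 55.9 and 146 CPM. In Fgf5-positive cells Pim1 and Pim3 ran against Pim2: Pim1 was at 35.0 against 57.6 CPM and Pim3 at 28.9 against 68.5 CPM. Sox2, the core pluripotency factor, was at 62.5 against 128 CPM, Tead1 was lower as well, and Sox12 and Lin28b were higher. Of the 10 paralogues, 4 were thus lower and 2 higher in Fgf5-positive cells, beside 3.23% and 3.6% of all genes. Of 14 genes of the LIN28 and let-7 pathway, Lin28b, Hmga2 (56.6 and 11.7 CPM) and Igf2bp1 (244 and 108 CPM), both let-7 targets, were lower in LBPXRS, 3 of 14 beside 6.29% of all genes, and none was higher. Against naive-like LB cells alone, Igf2bp1 was the only one of the 14 at least 2-fold lower at 10 CPM or more, a share near the 6.64% of all genes at that level. Lin28b, under that level, was 4.60-fold lower (3.52 to 6.05), Hmga2 was 1.70-fold lower (1.48 to 1.94) and, of the paralogues, Sox11 was 1.68-fold lower (1.36 to 2.08). In Fgf5-positive cells Lin28b and Hmga1 were higher and Hmga2 and Igf2bp2 lower, 2 of 14 each way. Beside these, 3.6% of all genes tested were higher and 3.23% lower.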

How the data were processed

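The deposited matrices hold raw UMI counts per gene and cell barcode, for which the authors used Cell Ranger (version 4.0.0, per the file headers). The build mm10 is named in the submitters' processing notes, and the genes were placed with GENCODE vM21 (32158 of 32285 identifiers found). Per the labels' protocols the libraries used 10x Genomics 3′ version 2 chemistry. The members and lists were chosen with earlier results of these data known.

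Barcodes with fewer than 1000 genes or over 10% mitochondrial UMIs were left out (225 of 2008 in LB, 406 of 3111 in LBPXRS). Scrublet in scanpy 1.11.5 marked 18 and 10 cells as doublets, which were kept; so few were marked that doublets may have been missed. Counts were summed over cells and scaled to CPM. Log2 ratios and the fold rules used a pseudocount of 1, which understates the change of low genes. Folds printed with an interval are plain CPM ratios with exact conditional binomial intervals at 95%, and shares have Clopper-Pearson intervals. A gene was counted as different at 2-fold between libraries, or 1.5-fold for Fgf5-positive cells, with at least 10 CPM in either set. With 1 library per condition there was no test. Thinning to 5000 UMIs left out 50 LB and 84 LBPXRS cells.

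Each library was clustered with the members removed (2000 variable genes, 30 components, 15 neighbours, Leiden resolution 0.5). LB clusters were named from markers, needing at least 3 markers raised 2-fold at 5 CPM or more, by thresholds set after the clusters were seen. Ties, leading genes of another class, low depth, or a class not ahead among the leading genes with a low median marker ratio kept a cluster unnamed. Clusters without a name held 11.5%, 8.64% and 3.42% of LB cells. Names were not used in LBPXRS, where 1 cluster met the rule (trophoblast, 25.0% of cells). The formative-like cluster had 3 of 10 markers raised (Fgf5, Dnmt3b and Sall2), so Fgf5 helped to name it.

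Named genes were the 10 members, up to 4 genes per list and comparison with the largest differences of at least 2-fold, and the 3 genes most like each member (those of Zic2 and 1 list gene are not reported here); other list genes were named after their values were seen. Zcchc11 and Zcchc6 of the let-7 list are older symbols of Tut4 and Tut7, which the list and the table hold. The counting rules were tested on simulated data with counting noise only: for the libraries 100 of 100 genes raised 4-fold and 92 of 100 lowered 4-fold were called, and 0 of 12399 unchanged genes. For Fgf5-positive cells 100 of 100 genes raised 3-fold and 99 of 100 lowered 3-fold were called, and 18 of 12242 unchanged genes. Alternatives changed the pseudocount, scaling (TMM from edgeR 4.0.16), cell filter, doublets, level rule, clustering and the cells compared.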

Additional observations from a re-analysis of the deposited data

How the results depend on the processing

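Between the libraries, all 10 members kept the direction of their log2 ratio under the 8 settings that kept every kind of LB cell, with a count of 6 lower members except for 5 under TMM and median-of-ratios scaling, where Zic5 fell short, and 8 with no level rule, where Sox3 and Zic2 were added. The median of -1.49 became -1.81 with a pseudocount of 0.1 and -1.36 with median-of-ratios scaling. Over all genes, 611 were 2-fold higher and 794 lower in the main scaling, and 781 and 596 under TMM.

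The choice of LB cells changed more. With Fgf5-positive LB cells only, the count was 7 and the median -2.48. With naive-like cells only, the count was 2 and the median -0.86, and Pim2 reversed to 0.42; 7 members kept their sign, as Tead2 (0.87) and Otx2 (-0.44), neither counted before, also turned. The next 3 settings were chosen after seeing the data. With formative-like cells the median was -2.26. With naive-like cells from clusters at resolution 1, the count was 2, the median reversed to 0.0224, and Pou3f1 (0.0794), Sox4 (0.41) and Pim2 (0.87) reversed. With naive-like cells from clusters made with the members (765 cells), the count was 2 and the median -0.67, and Sox4 (0.0237) and Pim2 (0.45) reversed. Utf1 and Lin28a were the members counted under the first naive-like setting. The cause of these changes was not tested beyond the change of cells itself.

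For Fgf5-positive cells, the count of higher members ran from 5 to 7 under the 9 planned settings. With cells positive after thinning (40 cells), Utf1 was counted as lower, a count of 1, and the median fell to 0.60 from 0.90. Within naive-like and formative-like clusters Utf1 was also counted as lower, again a count of 1. In cells with no UMI of T, Mesp1, Hand1 or Foxf1 the median was 1.14. Within the formative-like cluster, chosen after seeing the data, the count of higher members was 1 and the median 0.24. Sox4 was -0.44 when positive cells needed 2 Fgf5 UMIs and 0.77 in cells without those mesoderm genes.

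No paired analysis was possible because each condition has 1 library. For the same reason no replicate was left out. Sox3 in LBPXRS rests on 5 UMIs, and its ratio is limited by depth.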

Other observations

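In LB, cells with Pou3f1 RNA often held Pim2 RNA too. After thinning, Pim2 was found in 50.7% (42.2 to 59.2) of the 142 cells with a Pou3f1 UMI and in 14.6% (12.9 to 16.4) of the others. Within the formative-like cluster these shares were 73.5% (62.7 to 82.6) and 68.8% (62.4 to 74.7), with overlapping intervals. Cells with Utf1 held Sox4 less often, 8.26% (6.61 to 10.2) of 968 cells against 23.4% (20.4 to 26.6) of the rest, and Tead2 less often, 34.0% against 58.4%. Within the formative-like cluster the intervals overlapped for both, at 8.20% (4.66 to 13.2) against 11.2% (6.40 to 17.8) for Sox4 and 60.1% against 60.4% for Tead2.

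Over the 14 clusters of the libraries, the genes whose log2 level followed a member most closely among 7057 genes were found by Pearson correlation, as a description; clusters of a library share its depth and chemistry. Utf1 was most like Mkrn1 (0.94), Pla2g10 (0.93) and Dppa4 (0.92). Pim2 was most like Nefl (0.87), Plekha1 (0.81) and Gng3 (0.80), the lowest values among the members. Pou3f1 was most like Tmem167 (0.96), Nes (0.93) and Gap43 (0.92), and Otx2 most like Tipin (0.89), Ino80c (0.88) and Inip (0.88). Lin28a was most like Ddx42 (0.98), Scaf11 (0.98) and Oaz1 (0.97), and Tead2 most like Bbip1, Gnas and Zcrb1 (each 0.96). For Zic5 they were Scaf4, Zmiz2 and Ipo8, for Sox4 Lpp, Marcks and Ext1, and for the rare Sox3 Ly6e, Lztfl1 and Ifi35.

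The 225 LB and 406 LBPXRS barcodes left out by the cell filter still held Utf1, at 357 CPM (315 to 402) and 98.9 CPM (77.3 to 124). They held Lin28a at 48.6 CPM (34.1 to 67.3) and 8.24 CPM (3.02 to 17.9), lower in LBPXRS as in the kept cells.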
